A study of Mus musculus with 6 samples.

Results

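The nuclear lamina and the inner nuclear membrane were followed in cultured mouse T cells through 10 genes, Nemp1, Lmna, Lmnb1, Lmnb2, Lbr, Emd, Tmpo, Sun1, Sun2 and Banf1. The genes were chosen by name, and each symbol matched 1 of the 41079 genes listed in the deposited expression table. They were chosen with the difference between the temperatures already known, so their values are given as a description. No p is printed for them, and calls among them are only counted beside the share of all genes called. RNA sequencing covered 6 libraries of D10 T cells, described as a cloned CD4+ helper T cell line of the mouse. Whether all libraries come from 1 clone was not tested, and no genetic change is named for the line. Cold-acclimated T cells were cultured for 24 h at 26°C (n = 3) and non-acclimated T cells for 24 h at 37°C (n = 3). No agent was named that differed between the conditions. The labels give RPMI with serum and antibiotics as the medium, and the study's methods DMEM with serum, antibiotics and the T cell growth factor interleukin 2, in which the line was maintained. The comparison asks which transcripts differed after a day in the cold.

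The lamina is a meshwork of lamin filaments under the inner nuclear membrane that gives the nucleus its shape and stiffness and holds silent chromatin at the periphery. A-type lamins come from Lmna and B-type lamins from Lmnb1 and Lmnb2. Proteins of the inner membrane, such as the lamin B receptor (Lbr), emerin (Emd) and the lamina-associated polypeptides 2 (Tmpo), tie the meshwork and the chromatin to the membrane. SUN proteins (Sun1, Sun2) cross into the space between the membranes and join the lamina to the cytoskeleton. Nemp1 is a conserved multi-pass protein of the inner membrane that contributes to the stiffness of the nuclear envelope and is needed for fertility. Lymphocytes are known for a lamina rich in B-type and poor in A-type lamin, and for squeezing the nucleus through narrow gaps as they migrate.

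Values are TPM, in which a read count is divided by the gene's length and each library is scaled to the same total. Recovered read totals ran from 16899628 to 31290854 per library, and 12227 genes with a mean of at least 1 TPM were tested. Calls needed both a limma p under 0.05 after Benjamini-Hochberg adjustment and a log2 fold change of 1 or more in either direction. Over all tested genes the median of the log2 fold change, cold-acclimated minus non-acclimated on log2(TPM + 1), was -0.34, and it was 0.02 after scaling by the median of ratios. Libraries with the same replicate number deviated together, so values are also given within each replicate.

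The 6 libraries did not all fit the CD4+ label. Cd4 stood at 1.09, 0.0351 and 310 TPM in the replicates 1, 2 and 3 kept at 37°C. After the cold the same replicates had 1.30, 0.352 and 328 TPM. It was therefore abundant in replicate 3 of both conditions and near 0 in the other libraries. Of 10 T cell markers, 9 were at 1 TPM or more in all 6 libraries, and the sum of the 10 was 3528 to 4761 TPM at 37°C and 4396 to 5002 TPM at 26°C. Cd28 (7.35 and 5.61 TPM at 37°C and 26°C) and Cd3d (64.3 and 78.6 TPM) were lowest in replicate 2 of both conditions. The 7 B cell markers summed to at most 1.26 TPM in any library, with Ms4a1 and Blnk at 0 throughout. The 7 macrophage markers summed to 15.9 and 21.2 TPM in replicate 3 at 37°C and 26°C and to 2.46 to 3.39 TPM elsewhere. Of these, Lyz2 stood at 11.6 and 14.8 TPM in replicate 3 and at 0 to 1.58 TPM elsewhere, and Cd14 was at 0 throughout. Because of replicate 3, values without its libraries, an alternative chosen after seeing the data, are printed beside the results.

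The promoter sequences shown here are those of the genes that differed most within the group: Nemp1, Tmpo and Sun2, which were lower in the cold, and Lmna, which was higher. Each is the 250 bases before the transcription start as given by RefSeq on GRCm38.p6, a build other than the GRCm39 of the expression table, 5′ to 3′ along the gene. Capitals mark the CCAAT box, which reads ATTGG on the other strand. They are Nemp1 (chr10:127676815-127677064, plus strand), the upstream start of Tmpo (chr10:91171620-91171869, minus strand), Sun2 (chr15:79742537-79742786, minus strand) and the upstream start of Lmna (chr3:88503353-88503602, minus strand).
Nemp1: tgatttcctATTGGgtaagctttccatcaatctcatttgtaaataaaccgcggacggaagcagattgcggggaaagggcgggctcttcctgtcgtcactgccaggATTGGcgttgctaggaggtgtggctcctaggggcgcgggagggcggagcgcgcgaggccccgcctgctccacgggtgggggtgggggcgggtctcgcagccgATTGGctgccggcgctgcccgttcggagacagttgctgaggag
Tmpo: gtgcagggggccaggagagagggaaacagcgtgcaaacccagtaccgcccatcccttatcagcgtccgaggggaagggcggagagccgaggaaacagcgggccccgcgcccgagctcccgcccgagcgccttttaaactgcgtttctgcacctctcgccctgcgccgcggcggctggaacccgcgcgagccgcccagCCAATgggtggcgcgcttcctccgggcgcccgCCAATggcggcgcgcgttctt
Sun2: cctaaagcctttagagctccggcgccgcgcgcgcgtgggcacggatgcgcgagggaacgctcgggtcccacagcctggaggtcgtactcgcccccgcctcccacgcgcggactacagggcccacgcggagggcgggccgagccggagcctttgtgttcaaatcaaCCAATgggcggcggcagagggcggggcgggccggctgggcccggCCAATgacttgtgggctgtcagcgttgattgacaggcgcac
Lmna: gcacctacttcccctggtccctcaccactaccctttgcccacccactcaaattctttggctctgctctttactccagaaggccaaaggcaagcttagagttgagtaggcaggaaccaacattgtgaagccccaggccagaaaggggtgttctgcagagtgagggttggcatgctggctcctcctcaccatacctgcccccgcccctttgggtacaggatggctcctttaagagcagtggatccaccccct

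Nemp1 held 3 CCAAT boxes in its window, the upstream Tmpo window and Sun2 held 2 each, and the upstream Lmna window held 0. Lbr and the upstream Sun1 window, which are not printed, also held 2 each. Emd, the upstream Banf1 window and the downstream windows of Sun1 and Lmna held 1 each. Both windows of Lmnb2, which was lower in the cold, held 0, as did the downstream windows of Tmpo and Banf1. RefSeq windows of 300 bases, 250 before and 50 after the start, were found for 9 of the 10 genes (Lmnb1 was not matched), with 14 windows in all. CCAAT lay in 9 of the 14 windows, against 37.4% of all 32851 mouse windows, and in at least 1 window of 8 of the 9 genes, the exception being Lmnb2. For Lmna it lay only at the downstream start, and the window of Nemp2, the paralog of Nemp1, held none. The GC box, GGGCGG, was found in 10 of the 14 windows, against 35.7% of all windows, and in at least 1 window of all 9 genes. Shares of all windows compare with counts of windows only, since a gene with more than 1 window can match in any of them. The cell cycle homology region core, TTTGAA or TTCGAA, was found in 3 of the 14 windows (19.2% of all windows). These were the windows of Lbr, Sun2 and the downstream start of Tmpo, and the upstream Tmpo window held none.

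Other letters were rarer among these windows. The E2F letters TTTCGCGC, TTTGGCGC, TTTCCCGC or TTTGCCGC were found in 2 of the 14 windows (2.26% of all windows). These lay at the upstream start of Banf1 and the downstream start of Tmpo, and the upstream Tmpo window held none. The TATA box, TATAAA, was found in 1 window, at the downstream start of Sun1 (13.6%). The sterol response element letters TCACNNNAC were found in 1 window, at the upstream start of Lmna (11.2%). The E-box CACGTG (7.15%), the heat shock element core GAANNTTC (7.86%), the cyclic AMP response element TGACGTCA (1.79%) and the NRF1 site (0.971%) were in no window of the 9 genes. All 10 motifs were read on both strands, and motifs whose letters overlap, as those of the E-box and the sterol response element can, were counted apart. A match is a run of letters in these windows and no measure of binding.

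Nemp1 showed by far the widest gap of the group. In non-acclimated T cells it stood at 53.8, 63.7 and 22.0 TPM in replicates 1, 2 and 3, and in cold-acclimated T cells at 2.25, 1.24 and 3.19 TPM. The lowest library at 37°C was thus well above the highest at 26°C. The means were 46.5 ± 21.8 and 2.23 ± 0.971 TPM (SD, n = 3 each), a 20.9-fold lower mean in the cold, with 73 to 212 reads behind the cold-acclimated values. The log2 fold change was -3.79 (SE 0.45), and -3.46 relative to the median of all genes. Within replicates 1, 2 and 3 Nemp1 was 23.9, 51.2 and 6.90 times lower in the cold. Replicate 3 had the lowest level at 37°C and the highest at 26°C, and without its libraries the log2 fold change was -4.46. Of the 12227 tested genes, 3 had a log2 fold change below that of Nemp1 (0.0245%). Nemp1 was chosen with this contrast known, so nothing is read from this rank. The rank also depends on the fit. Cbx5, described below, was under Nemp1 here (-3.89) but not with a pseudocount of 0.1 (-4.26 against -4.28). The gene lies on chromosome 10 of GRCm39 (127512934 to 127536918, plus strand), and no other annotated gene overlaps it.

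Nemp2, which was not among the 10 genes, is the paralog of Nemp1 and its levels moved in the same direction. It stood at 31.5, 20.5 and 11.3 TPM at 37°C and at 0.712, 1.24 and 2.64 TPM at 26°C, again with no overlap. Its mean fell from 21.1 ± 10.1 to 1.53 ± 0.999 TPM (SD, n = 3 each). This log2 fold change of -3.09 (SE 0.44) had a limma adjusted p = 0.0078, and Nemp2 was lower in 3 of 3 pairs. The cold-acclimated values rested on 21, 38 and 92 reads. It was called under all 13 alternatives, with log2 fold changes between -3.76 and -2.62. Summed over both paralogs, the level was 28.8, 33.9 and 5.71 times lower in the cold within replicates 1, 2 and 3. Bulk RNA cannot tell fewer cells with a transcript from less of it per cell, for Nemp1 and Nemp2 as for every gene described here.

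**Figure D1:**
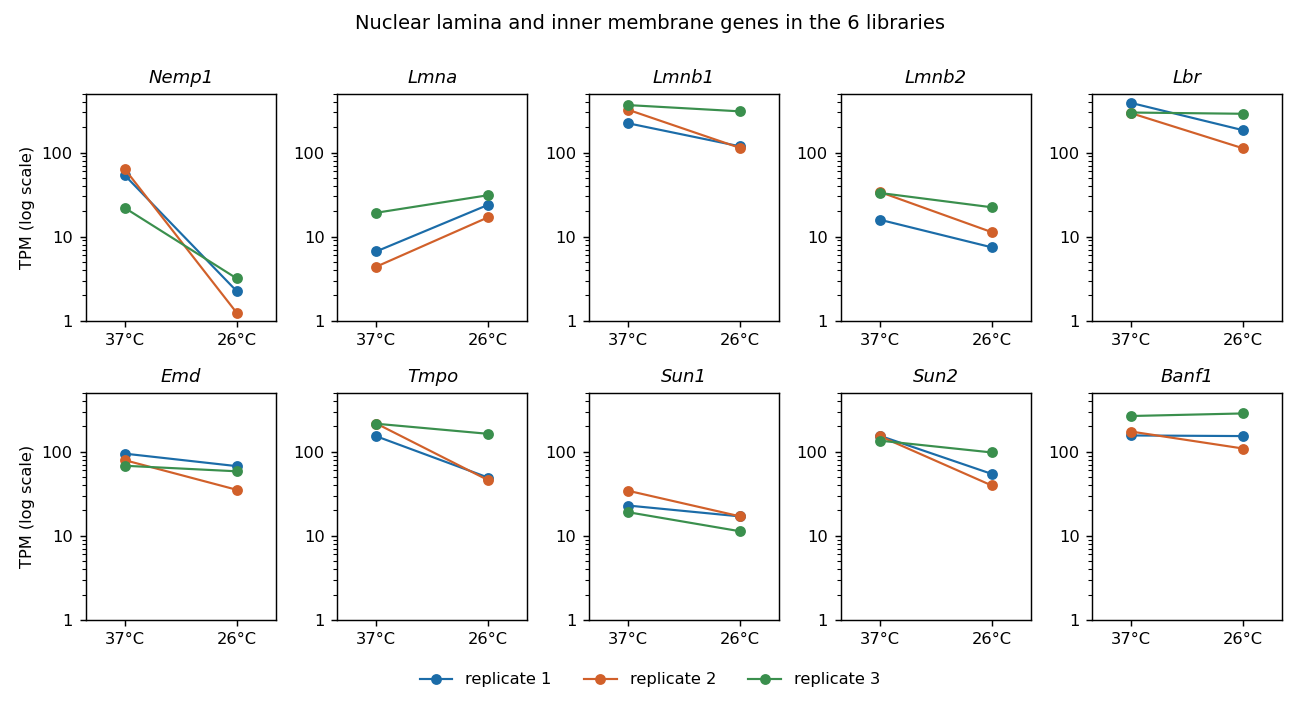
TPM on a log scale for each of the 10 genes in the 6 libraries, with lines joining the libraries of the same replicate number at 37°C and 26°C. Nemp1 drops from 22.0 to 63.7 TPM at 37°C to 1.24 to 3.19 TPM at 26°C, Lmna is the 1 gene that is higher at 26°C in every replicate, and the lines of replicate 3 are flatter than the others for most genes.

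Lmna, the source of lamins A and C, was the gene of the group that was higher in the cold. Non-acclimated T cells had 6.67, 4.39 and 19.2 TPM and cold-acclimated T cells 23.9, 17.0 and 31.1 TPM in replicates 1, 2 and 3. The ranges overlapped, because the non-acclimated replicate 3 lay above the cold-acclimated replicate 2. Within replicates Lmna was 3.59, 3.87 and 1.62 times higher in the cold, and the means were 10.1 ± 7.99 and 24.0 ± 7.05 TPM (SD, n = 3 each). The log2 fold change was 1.37 (SE 0.50), 1.71 relative to the median of all genes and 1.72 without replicate 3. It ran from 0.97 to 1.92 over the 13 alternatives. Lamin A and lamin C are splice forms of 1 gene and cannot be separated in a table of genes (chromosome 3, 88388455 to 88413842, minus strand).

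Both B-type lamins were lower in the cold in each replicate, by amounts that differed between replicates. Lmnb1 stood at 223, 323 and 367 TPM at 37°C and at 118, 113 and 309 TPM at 26°C. The cold-acclimated replicate 3 lay among the non-acclimated libraries, so the ranges overlapped. The log2 fold change of Lmnb1 was -0.89 (SE 0.42), with -0.91, -1.50 and -0.25 within replicates 1, 2 and 3. Lmnb2, the less abundant B-type gene, had 15.9, 34.0 and 33.1 TPM at 37°C and 7.46, 11.3 and 22.3 TPM at 26°C. Its log2 fold change was -1.02 (SE 0.45), and its ranges overlapped as well. Without replicate 3 the log2 fold changes were -1.20 for Lmnb1 and -1.25 for Lmnb2.

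The composition of the lamin transcripts was read within each library, where the scaling between libraries cancels. Lmna made up 2.72%, 1.22% and 4.59% of the summed TPM of Lmna, Lmnb1 and Lmnb2 in non-acclimated T cells and 16.0%, 12.0% and 8.58% in cold-acclimated T cells. All 3 cold-acclimated shares lay above all 3 non-acclimated ones, with means of 2.84% ± 1.69 and 12.2% ± 3.70 (SD, n = 3 each). Lmnb1 remained the main lamin transcript in every library, at 90.8%, 89.4% and 87.5% at 37°C and 79.1%, 80.0% and 85.3% at 26°C. Its TPM was 33.4, 73.5 and 19.1 times that of Lmna at 37°C and 4.95, 6.67 and 9.93 times at 26°C. The ratio of Lmna to Lmnb1 was therefore 6.75, 11.0 and 1.92 times higher in the cold within replicates 1, 2 and 3. The share of Lmnb2 ran from 6.47% to 9.41% at 37°C and from 4.98% to 7.98% at 26°C, so its ranges overlapped. The summed lamin TPM was lower in the cold in each replicate, at 246, 361 and 419 TPM against 150, 142 and 362 TPM.

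**Figure D2:**
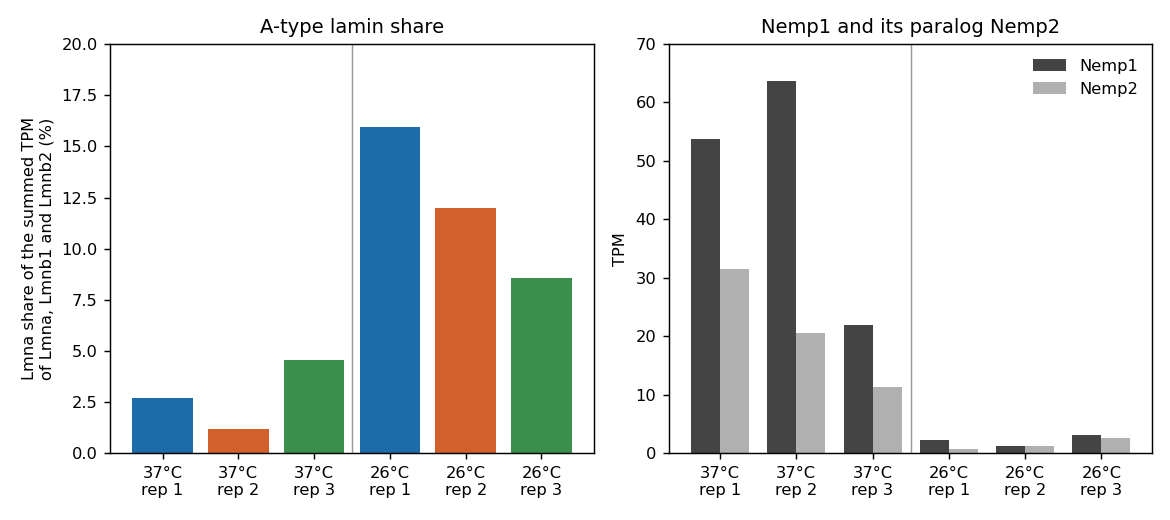
Left, the share of Lmna in the summed TPM of the 3 lamin genes (%), one bar per library, coloured by replicate; right, TPM of Nemp1 and its paralog Nemp2 per library. The Lmna share is 1.22% to 4.59% at 37°C and 8.58% to 16.0% at 26°C, while Nemp1 and Nemp2 are both at most 3.19 TPM at 26°C.

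Tmpo encodes the LAP2 proteins, most forms of which sit in the inner membrane and bind B-type lamins and chromatin. It stood at 152, 216 and 215 TPM at 37°C and at 49.1, 45.7 and 163 TPM at 26°C. Replicates 1 and 2 in the cold were far below the non-acclimated range, while replicate 3 reached into it. The log2 fold change was -1.41 (SE 0.48), or -1.91 without replicate 3, and within replicates it was -1.61, -2.21 and -0.40. The LAP2 forms arise by splicing and could not be told apart.

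Lbr holds lamin B and heterochromatin protein 1 at the membrane and is also a sterol reductase. Its levels were 389, 293 and 299 TPM at 37°C and 184, 112 and 289 TPM at 26°C, with no overlap but with the cold-acclimated replicate 3 just below the lowest non-acclimated library. The log2 fold change was -0.83 (SE 0.36) over all libraries, -1.23 without replicate 3 and -0.05 within replicate 3 alone. Relative to the median change of that replicate, Lbr was at 0.19 in replicate 3, so its lower level rested on replicates 1 and 2. Lmnb1 (-0.01) and Emd (0.02) also lay near that median in replicate 3, while Nemp1, Lmnb2, Tmpo, Sun1 and Sun2 lay further below it.

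Emd, whose product emerin carries the LEM domain that binds the protein of Banf1, had 94.8, 79.3 and 68.0 TPM at 37°C and 67.3, 35.2 and 58.4 TPM at 26°C. The conditions did not overlap, by a margin under 1 TPM, and the log2 fold change was -0.62 (SE 0.30), or -0.82 without replicate 3. The pseudogene Gm14686 lies within Emd on the same strand (chromosome X, 73298297 to 73305188), and how reads in it were counted is not given in the sources used here. Banf1, the DNA-binding barrier-to-autointegration factor that LEM-domain proteins hold at the envelope, had 156, 173 and 266 TPM at 37°C and 153, 109 and 285 TPM at 26°C. Its ranges overlapped and its log2 fold change was -0.20 (SE 0.39), with the sign turning to 0.20 under median of ratios scaling, to 0.18 under voom, to 0.12 without the cold-acclimated replicate 2 and to 0.03 without the non-acclimated replicate 3. Banf1 was thus the gene of the group with the smallest difference.

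Sun1 and Sun2 form the inner membrane side of the LINC complex, the bridge to the cytoskeleton. Sun2 was the more abundant at every point, with 155, 153 and 135 TPM at 37°C and 54.4, 39.7 and 97.9 TPM at 26°C. No library overlapped, and the non-acclimated spread of Sun2 was narrow (148 ± 10.9 TPM, SD, n = 3). Its log2 fold change was -1.29 (SE 0.34), with -1.49, -1.92 and -0.46 within replicates and -1.71 without replicate 3. Sun1 had 22.9, 34.3 and 19.1 TPM at 37°C and 17.0, 17.0 and 11.3 TPM at 26°C, again with no overlap, and a log2 fold change of -0.69 (SE 0.30), the same value without replicate 3. Sun1 differed in replicate 3 (-0.71) about as much as over all libraries, unlike Sun2, Tmpo and Lbr. The ratio of Sun2 to Sun1 was 6.77, 4.47 and 7.10 at 37°C and 3.20, 2.33 and 8.66 at 26°C, so it was lower in the cold in replicates 1 and 2 and higher in replicate 3.

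As a group, 9 of the 10 genes had a log2 fold change below 0 and 8 lay below the median of all genes. Their median was -0.86, against -0.34 over all tested genes, and the medians within replicates 1, 2 and 3 were -0.95, -1.44 and -0.32, against -0.32, -0.44 and -0.24. Nemp1 and Sun2 were called lower, 2 of 10 genes, where 16.0% of all tested genes were, and 0 were called higher, where 2.63% were. With no overlap, 5 genes (Nemp1, Lbr, Emd, Sun1 and Sun2) were lower in the cold (31.4% of all genes), and 0 were higher with no overlap (9.69%). In all 3 pairs, 8 genes were lower (47.9% of all genes) and 1, Lmna, was higher (18.2%). The choice of the genes used this same contrast, so nothing is read from these counts.

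**Figure D3:**
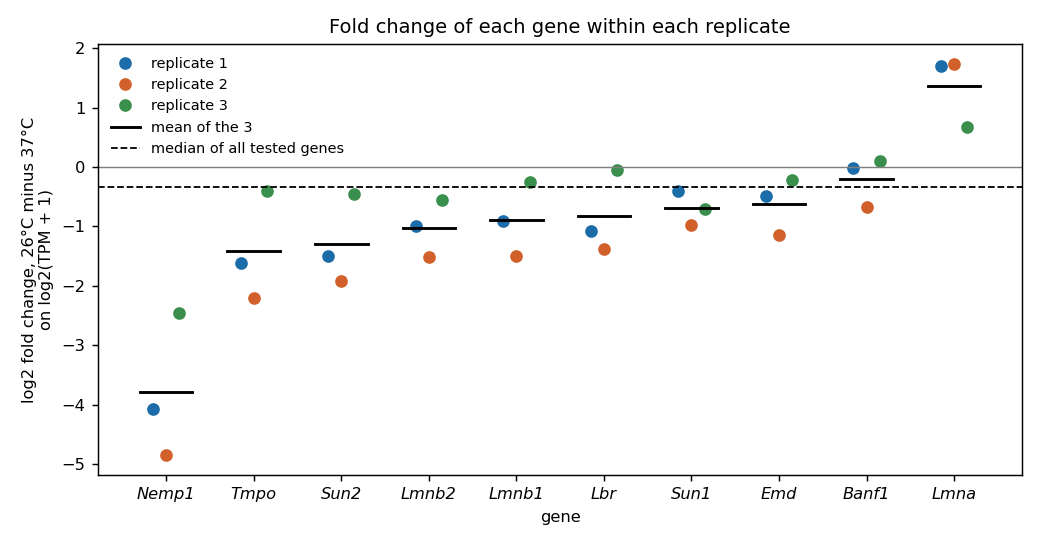
Log2 fold change, 26°C minus 37°C on log2(TPM + 1), of each gene within replicates 1, 2 and 3 (points), with the mean of the 3 (bar), ordered by the mean; the dashed line is the median of all tested genes, -0.34. Replicate 3 lies nearest to 0 for each gene except Sun1 and Banf1, where replicate 1 does.

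Calls among the 10 genes moved with the fit, and since they rest on the contrast used to choose the genes, nothing is read from them either. With the replicate number as a block, Nemp1, Lmnb2, Tmpo and Sun2 were called lower and Lmna higher, where 21.9% and 3.75% of all genes were. Without the libraries of replicate 3, Nemp1, Lmnb1, Lbr, Tmpo and Sun2 were called lower and Lmna higher, where 25.3% and 5.34% of all genes were. The log2 fold change of Nemp1 ran from -4.46 to -3.34 over the 13 alternatives. Sun2 was not called in 8 of them, among them the leaving out of any library other than the cold-acclimated replicate 3, with log2 fold changes of -1.71 to -0.90 over the 13. Apart from Banf1, each gene kept the sign of its log2 fold change under all 13 alternatives. The smallest in size were -0.20 for Sun1 under quantile normalization and -0.22 for Emd under median of ratios scaling.

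**Figure D4:**
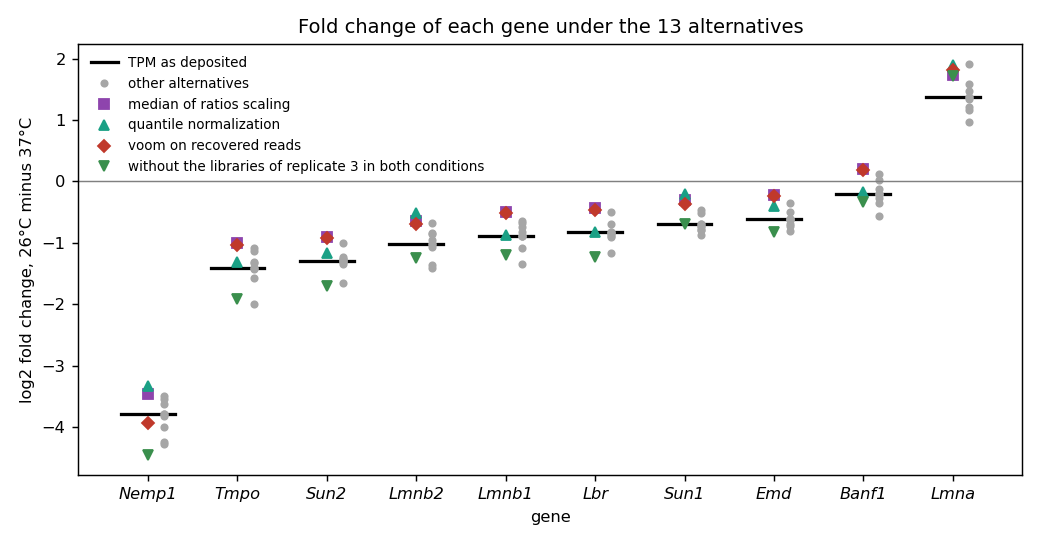
Log2 fold change, 26°C minus 37°C, of each of the 10 genes as deposited (bar) and under the 13 alternatives (symbols; grey points are the pseudocount, the filter, the block and the leaving out of 1 library). Nemp1 stays between -4.46 and -3.34 and Lmna between 0.97 and 1.92, while Banf1 lies on either side of 0.

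Levels were set side by side between genes because TPM is per length. The comparison is rough, since 1 length stands for all splice forms of a gene. Reads of overlapping genes may also enter the values of several of the 10. In non-acclimated T cells the order of the mean TPM was Lbr, Lmnb1, Banf1, Tmpo, Sun2, Emd, Nemp1, Lmnb2, Sun1 and Lmna, and neighbours in this order overlapped in range except Sun2 with Emd and Emd with Nemp1. In cold-acclimated T cells it was Lbr, Banf1, Lmnb1, Tmpo, Sun2, Emd, Lmna, Sun1, Lmnb2 and Nemp1, with overlap except between Emd and Lmna and between Lmnb2 and Nemp1. Nemp1 thus moved from the seventh place to the last and Lmna from the last to the seventh. At 37°C, Lbr, Lmnb1, Banf1 and Tmpo were each above more than 92% of all tested genes, Nemp1 was above 68.1% and Lmna above 29.7%. Set against the main lamin transcript, Nemp1 TPM was 24.1%, 19.7% and 5.99% of Lmnb1 TPM at 37°C and 1.90%, 1.10% and 1.03% at 26°C. All 10 genes together summed to 1269, 1375 and 1443 TPM at 37°C and to 677, 502 and 1270 TPM at 26°C.

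Several genes of the lamina are known to be expressed with the cell cycle, so proliferation markers are given beside them. The 12 markers summed to 2852, 2948 and 2863 TPM in non-acclimated T cells and to 912, 527 and 2543 TPM in cold-acclimated T cells, with none at 0 in any library. As with Tmpo, Lbr and Lmnb1, the cold-acclimated replicate 3 stayed near the non-acclimated libraries. The median log2 fold changes of the markers within replicates were -1.94, -2.74 and -0.10, and 3 of 12 were called lower, where 16.0% of all genes were. In all 3 pairs, 7 of 12 were lower, where 47.9% of all genes were. Within replicate 3, Mki67, Ccnb1, Ccnb2, Cdk1 and Birc5 were 1.06, 1.57, 1.21, 1.45 and 1.21 times higher in the cold. The 2 markers with the largest differences were Top2a and Bub1. Top2a, the DNA topoisomerase of dividing cells, fell from 485 ± 44.7 to 122 ± 136 TPM (log2 fold change -2.58, SE 0.69, limma adjusted p = 0.038), and the mitotic checkpoint kinase Bub1 from 97.2 ± 31.7 to 22.9 ± 19.7 TPM (log2 fold change -2.29, SE 0.56, limma adjusted p = 0.030; SD, n = 3 each). Both calls were lost without replicate 1 or 2 of either condition, and that of Top2a also without the non-acclimated replicate 3 (limma adjusted p up to 0.13). With no filter neither was called (0.097 for Top2a and 0.077 for Bub1), and Top2a was not called under median of ratios scaling (0.056) or voom (0.054), all limma adjusted p. Without replicate 3 of both conditions, 11 of 12 were called lower, where 25.3% of all genes were. Their part in the values of the 10 genes was not tested.

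A list of 51 other genes of the nuclear envelope, arranged by role, placed the 10 in context. Of these, 47 were tested, and Syne4, Sun3, Sun5 and Lpin2 were too low. Calls were lower for 7 genes (14.9%, against 16.0% of all genes) and higher for 1, with a median log2 fold change of -0.38. The list as a whole therefore lay near the median of all genes, at -0.04 relative to it. Without replicate 3, 16 were called lower, where 25.3% of all genes were.

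Among the enzymes that process the tails of lamins, Icmt, which methylates the farnesylated cysteine, fell from 23.6 ± 3.91 to 8.85 ± 1.03 TPM (log2 fold change -1.31, SE 0.24, limma adjusted p = 0.014). The other 4, including the prelamin A protease gene Zmpste24 (33.4, 54.6 and 47.0 against 68.0, 66.2 and 60.9 TPM, named after its values were seen), were not called. Of 4 further LEM-domain genes, 1 was called. Ankle1, a LEM-domain nuclease, fell from 7.14 ± 0.743 to 0.687 ± 0.965 TPM (log2 fold change -2.41, SE 0.41, limma adjusted p = 0.011), all SD with n = 3. The cold-acclimated values of Ankle1 rested on 6, 13 and 150 reads.

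The genes of the LINC complex other than Sun1 and Sun2 gave no call among the 4 tested. The largest difference was that of Syne2, which encodes the outer-membrane partner nesprin-2, with 14.0, 9.45 and 13.1 TPM at 37°C and 3.38, 1.84 and 9.69 TPM at 26°C (log2 fold change -1.35, SE 0.48, limma adjusted p = 0.084). It was called with the replicate block (limma adjusted p = 0.025) and without replicate 3 (limma adjusted p = 0.013). Among the other membrane proteins of the envelope, Nemp2 was lower and Tmem201, the source of Samp1 of the inner membrane, was the 1 gene of the list called higher. It rose from 8.41 ± 1.98 to 19.0 ± 4.84 TPM (SD, n = 3 each; log2 fold change 1.08, SE 0.30, limma adjusted p = 0.042).

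Chromatin tethers held 3 of the 7 lower calls, among 6 tethers tested, where 16.0% of all genes were called lower. The tethers Cbx3 (log2 fold change -0.44), Hdac3 (-0.49) and Prr14 (0.18) were not called. Cbx5, which encodes heterochromatin protein 1 alpha, a partner of the lamin B receptor, had 70.6, 70.6 and 143 TPM at 37°C and 2.02, 1.68 and 27.1 TPM at 26°C (log2 fold change -3.89, SE 0.86, limma adjusted p = 0.022). Cbx1, for heterochromatin protein 1 beta, fell from 107 ± 15.9 to 33.5 ± 19.4 TPM (log2 fold change -1.77, SE 0.38, limma adjusted p = 0.020). Gmcl1, for germ cell-less, which binds LAP2 beta, fell from 37.2 ± 6.64 to 16.0 ± 8.50 TPM (log2 fold change -1.26, SE 0.37, limma adjusted p = 0.048; SD, n = 3 each). Dhcr7, a cholesterol pathway enzyme of the same reductase family as Lbr, fell from 53.0 ± 26.8 to 14.8 ± 2.15 TPM (log2 fold change -1.63, SE 0.43, limma adjusted p = 0.037).

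Genes for envelope reformation after mitosis, for envelope lipid control and for the Ran cycle gave no call. The reformation genes Vps4a (log2 fold change -0.90, limma adjusted p = 0.037) and Chmp7 (-0.86, limma adjusted p = 0.040) missed a call only by the size of the change. The largest differences in these roles were those of Vrk1, the kinase that releases the product of Banf1 from chromatin (log2 fold change -1.42, SE 0.51, limma adjusted p = 0.083), of the lipin gene Lpin1 (-1.35, SE 0.50, limma adjusted p = 0.093) and of Rangap1 (-0.68, SE 0.56, limma adjusted p = 0.42). Without replicate 3 these were called, at limma adjusted p = 0.0044, 0.012 and 0.011, and with the replicate block Vrk1 (limma adjusted p = 0.030) and Lpin1 (0.050 after rounding) were. The call of Nemp2 held whichever library was left out. That of Ankle1 was lost without the cold-acclimated replicate 1 or the non-acclimated replicate 2, at a limma adjusted p of 0.051 each. Leaving out replicate 1 or 2 of either condition lost the calls of Icmt, Cbx1, Cbx5, Dhcr7, Gmcl1 and Tmem201, as did leaving out the non-acclimated replicate 3 for Cbx5, Gmcl1 and Tmem201 and the cold-acclimated replicate 3 for Dhcr7. In these fits the largest limma adjusted p of the gene in question was 0.072 for Icmt, 0.082 for Cbx1, 0.083 for Cbx5, 0.13 for Dhcr7, 0.14 for Tmem201 and 0.15 for Gmcl1. Other settings lost calls too. Dhcr7 and Gmcl1 were not called under median of ratios scaling (limma adjusted p = 0.087 and 0.10), quantile normalization (0.12 and 0.13), voom (0.097 and 0.11) or with no filter on low values (0.083 and 0.096). Icmt was not called under median of ratios scaling, where its log2 fold change was -0.94, or quantile normalization, where it was -0.76. Cbx1, Cbx5 and Tmem201 were not called with no filter (limma adjusted p = 0.051, 0.065 and 0.080).

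**Figure D5:**
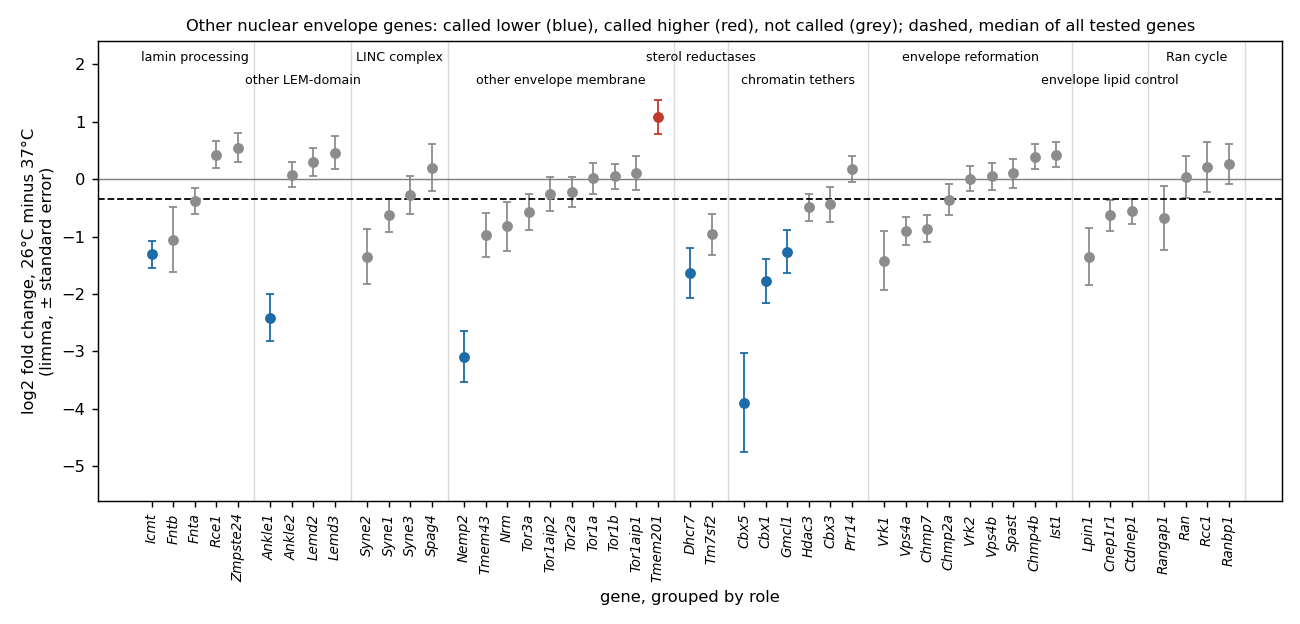
Log2 fold change, 26°C minus 37°C (limma, ± standard error), of the 47 tested other nuclear envelope genes, grouped by role; blue is called lower, red called higher, grey not called, and the dashed line is the median of all tested genes, -0.34. Nemp2 (-3.09) and Cbx5 (-3.89) lie lowest, and Tmem201 (1.08) is the gene called higher.

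The 31 genes of the nuclear pore, the other large assembly of the envelope, had a median log2 fold change of -0.51 and 6 lower calls (19.4%, against 16.0% of all genes). Nup35 fell from 33.1 ± 5.91 to 8.35 ± 2.54 TPM (log2 fold change -1.89, SE 0.30, limma adjusted p = 0.0093) and Nup133 from 42.6 ± 6.20 to 14.4 ± 8.99 TPM (log2 fold change -1.64, SE 0.39, limma adjusted p = 0.028; SD, n = 3 each). Without replicate 3, 13 were called lower, where 25.3% of all genes were. The call of Nup35 was lost without the non-acclimated replicate 2 (limma adjusted p = 0.052), and that of Nup133 without any library other than the cold-acclimated replicate 3 (limma adjusted p up to 0.10), with no filter (limma adjusted p = 0.065) and under quantile normalization (limma adjusted p = 0.052).

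The genes most like Nemp1 over the 6 libraries were sought by Pearson's r on log2(TPM + 1) among 9733 genes with a mean of at least 5 TPM. They were Poglut3 (r = 0.9988), an endoplasmic reticulum glucosyltransferase, Tulp3 (0.9988), a tubby-like protein of ciliary traffic, Zswim3 (0.9985), Tmem126b (0.9977), an assembly factor of mitochondrial complex I, and Ikbip (0.9975). Ikbip stood at 12.8, 17.0 and 7.03 TPM at 37°C and at 1.13, 0.856 and 1.89 TPM at 26°C, and Tmem126b at 34.3, 41.6 and 22.6 against 5.66, 4.66 and 7.99 TPM. Like Nemp1, these were lowest at 37°C and highest at 26°C in replicate 3, a likeness that comes with their choice over the same libraries. Pearson's r takes no account of the size of a difference. Among the 5 genes the mean was 2.66 (Tulp3) to 9.51 (Ikbip) times lower in the cold, against 20.9 times for Nemp1. Nemp2 had r = 0.9763 and ranked 244, and 705 genes had r above 0.95. With 6 libraries in 2 conditions such values are a description of the shared difference between the conditions.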

How the data were processed

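Poly(A)+ RNA from 3 cold-acclimated and 3 non-acclimated preparations of D10 T cells was made into strand-specific libraries and sequenced as paired ends. Per the labels and the study's methods, the authors used FastQC 0.11.7, Trimmomatic 0.38, HISAT2 2.1.0 on GRCm39 and featureCounts 1.6.3. The authors deposited TPM values for each gene and library, and no counts were used as deposited. Neither the annotation release nor the strand setting of the counting is given in the sources used here. For genes overlapped on the opposite strand (Lmnb1 by Marchf3, Lbr by Dnah14, Banf1 by Eif1ad, Lmnb2, Sun1 and Sun2 by non-coding RNAs), reads of the partner cannot be told apart without the strand setting. Lbr is also overlapped on the same strand by the rRNA gene Gm55354, and how reads in Gm55354 were counted is not given either.

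Whole reads were recovered, since a gene's TPM values are multiples of what 1 read adds, for 100% of the 21195 genes above 0 in any library (tolerance 1e-06 reads). The main test was limma 3.58.1 in R 4.3.3 with a mean-variance trend on log2(TPM + 1), over the 12227 genes whose mean TPM reached 1. Calls needed a p under 0.05 after Benjamini-Hochberg adjustment together with a log2 fold change of 1 or more in either direction. Fold changes on this scale understate those of low genes. Tables and plots were made with Python 3.11.15, pandas 2.3.3 and matplotlib 3.10.9, and the scripts were tested on simulated data.

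Deviations from the condition means correlated across genes at 0.48, 0.50 and 0.51 between libraries of the same replicate number and at -0.41 to 0.02 otherwise. Values within replicates therefore pair libraries by number. The main test was unpaired, with no term for the replicate number, and so were its standard errors, adjusted p and calls. Pairing entered a test only in the alternative with the replicate as a block. Old and new batches of RNA extraction are named in the labels but not tied to libraries, and p-values measure the spread between these preparations of a line described as cloned.

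The 10 genes and the other lists were chosen with earlier results of these data known. The genes named were the 10, every other envelope gene called and the largest difference in each role, the 2 largest among pore genes and proliferation markers, and the 5 most like Nemp1. Further envelope genes and proliferation markers were named after their values were seen. Alternatives were a pseudocount of 0.1, no filter, median of ratios scaling, quantile normalization, the replicate as a block, voom on recovered reads, leaving out each library and, chosen after seeing the data, leaving out replicate 3 of both conditions.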

Additional observations from a re-analysis of the deposited data

How the results depend on the processing

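The median log2 fold change of the 10 genes stayed below 0 under all 13 alternatives (-1.26 to -0.46) and ran from -1.26 to -0.71 when 1 library was left out. Counts of calls moved more. Over all genes of each fit, the higher and lower calls were 184 and 1121 with no filter on low values, 802 and 1075 with median of ratios scaling, 722 and 772 with quantile normalization, 723 and 1163 with voom, 653 and 3088 without the libraries of replicate 3, and 458 and 2679 with the replicate block, against 321 and 1954. The fit with no filter took in the 21195 genes above 0 in any library, and every other fit 12227 genes. Of the 10 genes, 1 was called higher with median of ratios scaling, quantile normalization, the block, voom and without replicate 3. Their lower calls were 1 with no filter, median of ratios scaling and voom, 4 with the block and 5 without replicate 3. The other envelope genes had 0 higher calls with no filter, and 3, 4, 4, 11 and 16 lower calls with no filter, median of ratios scaling, quantile normalization, the block and without replicate 3. Pore genes had 3 lower calls with no filter, with median of ratios scaling and with voom, and 13 without replicate 3. Proliferation markers had 0 with no filter, 6 with the block and 11 without replicate 3. Leaving out 1 library gave 59 to 459 higher and 345 to 2725 lower calls over all genes, 0 to 1 and 1 to 6 among the 10 genes, 0 to 1 and 1 to 14 among the other envelope genes, 0 to 12 lower among pore genes and 0 to 11 lower among proliferation markers. With the replicate block, Lmna, Lmnb2, Tmpo, Syne2, Vrk1 and Lpin1 gained a call. Among the 10 genes and the genes given with an adjusted p in the text, no other gained or lost one. The cause of these shifts was not tested. Cold-acclimated reads were few for Nemp1 (73 to 212), Nemp2 (21 to 92) and Ankle1 (6 to 150).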
